A study of Mus musculus with 48 samples.

Results

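The 10 genes described here carry magnesium across membranes or are named as magnesium transporters: Slc41a1, Slc41a2, Slc41a3, Trpm6, Trpm7, Cnnm2, Cnnm3, Cnnm4, Magt1 and Mrs2. They were found by symbol among the 53700 genes of the count table, and 9 of the 10 were among the 16623 genes that passed the filter on low counts, Trpm6 being the one that did not. Slc41a3 was chosen by its measured level, as earlier results of these data had shown it in Bmal1 knockout hearts and in floxed Bmal1 controls, so its values are given as a description, with a standard error (SE) but no test. The other 9 genes were listed for their function, with earlier results of these data known.

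RNA was sequenced from the tissue of both ventricles of 48 male C57BL/6 mice, 6 in each of 8 groups. Cardiomyocyte Bmal1 knockouts (CBK) carried Bmal1 flox/flox and 1 copy of a Cre transgene under the MHCα promoter, which is active in cardiomyocytes, and their littermates (BMAL1 FLOX) carried Bmal1 flox/flox without Cre. Cardiomyocyte E4bp4 knockouts (CEK) carried E4bp4 flox/flox with the same Cre, against E4BP4 FLOX littermates without it. Double knockouts (CBK/CEK) carried both floxed alleles with Cre, against BMAL1/E4BP4 FLOX littermates. Cre controls (Cre CON) carried the Cre transgene and no floxed allele, against wild-type littermates (WT). The sources used here give neither the age of the mice nor the time of day of collection. Deletion is limited to cells in which the promoter was active, the libraries hold RNA of all ventricular cells, and fewer cells of a type cannot be told apart from less RNA per cell.

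Magnesium is the partner of ATP in the cell and a cofactor of a large number of enzymes, and part of it lies in mitochondria, which are abundant in heart muscle. SLC41 proteins carry magnesium through membranes: in human cells SLC41A1 has been described as a sodium-dependent exchanger of the plasma membrane and SLC41A3 as a mitochondrial efflux system, while MRS2 is the channel through which magnesium enters the mitochondrial matrix. TRPM6 and TRPM7 are channels fused to a kinase, CNNM proteins are membrane proteins linked to magnesium transport, and MAGT1 is both a subunit of the oligosaccharyltransferase and a protein linked to magnesium uptake. BMAL1, encoded by Arntl, is the clock activator that binds E-boxes with CLOCK, and E4BP4, encoded by Nfil3, is a repressor that binds D-boxes.

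Promoter windows are shown because they belong to Slc41a3, the gene with the widest difference between groups, and to Slc41a1 and Trpm7, which are described below and carry a clock-type motif. Each runs from 250 bases before to 50 bases after a RefSeq start site of build GRCm38.p6, and capitals mark the motifs found. The windows lie at chr6:90618996-90619295 on the plus strand for Slc41a3, chr1:131827762-131828061 on the plus strand for Slc41a1 and chr2:126876212-126876511 on the minus strand for Trpm7.
Slc41a3: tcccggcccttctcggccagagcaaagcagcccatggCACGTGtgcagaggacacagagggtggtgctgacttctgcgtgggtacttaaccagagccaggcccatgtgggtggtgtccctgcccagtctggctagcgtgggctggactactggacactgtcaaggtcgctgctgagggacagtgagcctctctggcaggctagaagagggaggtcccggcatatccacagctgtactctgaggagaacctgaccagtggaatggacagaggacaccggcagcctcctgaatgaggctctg
Slc41a1: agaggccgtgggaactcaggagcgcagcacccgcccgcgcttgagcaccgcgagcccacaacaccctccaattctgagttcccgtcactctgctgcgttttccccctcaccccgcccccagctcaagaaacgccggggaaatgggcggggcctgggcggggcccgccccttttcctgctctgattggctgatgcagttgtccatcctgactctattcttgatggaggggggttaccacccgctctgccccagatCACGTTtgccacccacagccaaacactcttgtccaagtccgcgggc
Trpm7: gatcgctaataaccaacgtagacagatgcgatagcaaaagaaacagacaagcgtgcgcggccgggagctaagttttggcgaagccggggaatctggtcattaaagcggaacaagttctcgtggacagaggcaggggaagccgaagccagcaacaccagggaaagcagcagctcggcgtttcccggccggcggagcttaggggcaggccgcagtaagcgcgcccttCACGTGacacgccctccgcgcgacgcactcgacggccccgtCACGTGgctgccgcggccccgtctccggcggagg

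A window was found for 9 of the 10 genes, Mrs2 being the one without. The motifs searched on both strands were the E-box CACGTG, the E'-box CACGTT, the D-box TTANGTAA and the ROR-element half-site AGGTCA, which 7.15%, 4.68%, 2.32% and 16.3% of all 32851 mouse promoter windows hold. Slc41a3 had an E-box with its first base at position -213 from the start site. Trpm7 had the E-box at positions -25 and 17, Magt1 had one at -97 that overlaps a ROR half-site at -101, and Slc41a1 had an E'-box at position 5. Cnnm3 had a ROR half-site at -235, on the reverse strand. None of the 4 motifs lay in the windows of Slc41a2, Trpm6, Cnnm2 and Cnnm4, and no window of the 9 held the D-box. The Slc41a3 gene model, chr6:90604725-90646412 on the plus strand of GRCm38 with 12 merged exons, begins upstream of this window, so other annotated start sites were not searched.

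Gene counts per library lay between 13128833 and 28407868, except for 126338949 in WT replicate 1. Levels are normalised read counts in CPM, the counts scaled to the library size after TMM scaling. Nfil3 checked the E4bp4 labels: it averaged 0.644 ± 0.095 CPM in CEK and 1.84 ± 0.649 CPM in CBK/CEK, against 8.07 ± 1.40 CPM in E4BP4 FLOX and 9.34 ± 1.65 CPM in BMAL1/E4BP4 FLOX (SD, n = 6 each). Arntl, counted over the whole gene, was at 8.40 ± 2.41 CPM in CBK against 1.04 ± 0.381 CPM in BMAL1 FLOX and at 11.8 ± 0.894 CPM in CBK/CEK against 0.987 ± 0.327 CPM in BMAL1/E4BP4 FLOX. A whole-gene count also takes reads from outside the floxed part, so Arntl does not check the Bmal1 labels, and CBK and CBK/CEK are named as labelled throughout. The 5 libraries of outlying composition, named in earlier work on these data, were CBK replicates 3 and 5, CEK replicates 4 and 5 and BMAL1/E4BP4 FLOX replicate 6. The gene ENSMUSG00000119584 alone took 34.8% of the counts in that last one and 33.4% in CEK replicate 4, and mitochondrial genes took 9.55% in CBK replicate 5. High shares of ENSMUSG00000119584 were not confined to these 5 libraries. It took 4.58% to 33.4% over the CEK libraries and 6.18% to 15.3% over E4BP4 FLOX, against 0.534% to 1.19% in WT. CEK replicates 6 and 1, at 24.4% and 18.4%, are not among the 5.

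Slc41a3 was the member that stood apart in the libraries labelled CBK and CBK/CEK. It ran from 232.0 to 325.0 CPM with a median of 288.6 CPM in CBK hearts, against 27.4 to 44.3 CPM with a median of 36.5 CPM in BMAL1 FLOX hearts. In CBK/CEK hearts it ran from 218.8 to 257.4 CPM with a median of 231.2 CPM, against 21.4 to 38.0 CPM with a median of 32.3 CPM in BMAL1/E4BP4 FLOX hearts. Neither pair of groups overlapped, as 4.20% of all genes tested did not in CBK and 3.53% in CBK/CEK, and the lowest of the 12 CBK and CBK/CEK libraries, at 218.8 CPM, lay above the highest of the 36 others, at 44.3 CPM. The means were 279.6 ± 36.4 CPM in CBK against 36.7 ± 5.65 CPM in BMAL1 FLOX, a log2 fold change of 2.93 (SE 0.15) or 7.61-fold (SD, n = 6 each). The CBK/CEK mean was 234.8 ± 16.5 CPM against 31.0 ± 6.54 CPM in BMAL1/E4BP4 FLOX, a log2 fold change of 2.91 (SE 0.15) or 7.54-fold.

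**Figure D1:**
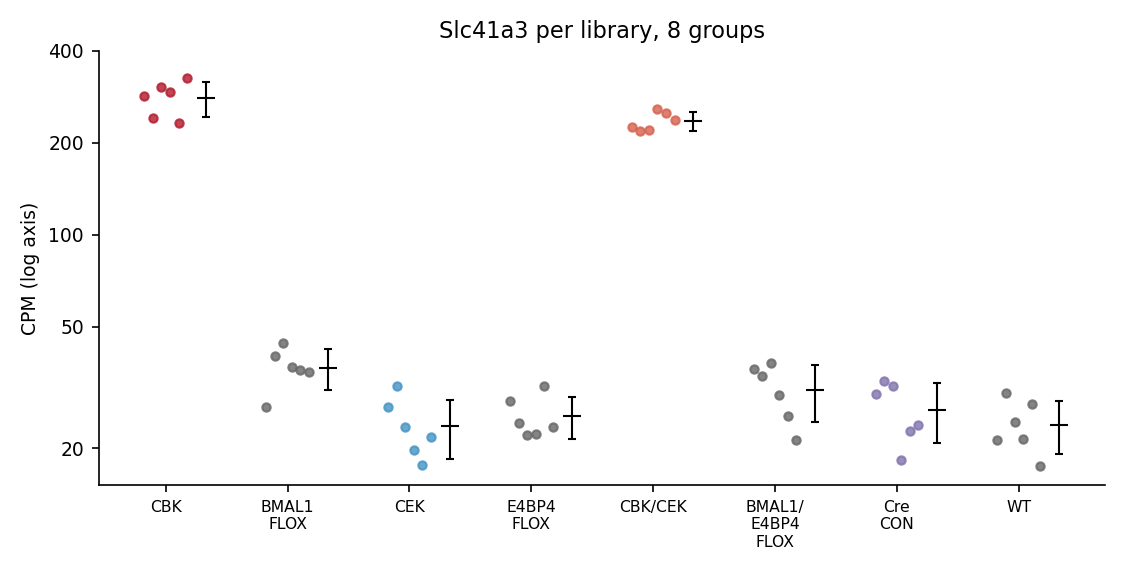
Slc41a3 level in CPM on a log axis for each of the 48 libraries, by group, with each knockout or Cre group left of its littermates, and bars at the group means. The 12 CBK and CBK/CEK libraries sit at 218.8 CPM or more, and the 36 others sit at 44.3 CPM or less.

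Slc41a3 overlapped between knockout and control in the line without the Bmal1 alleles. It ran from 17.7 to 32.0 CPM with a median of 22.7 CPM in CEK hearts, against 22.2 to 32.0 CPM with a median of 23.9 CPM in E4BP4 FLOX hearts, a log2 fold change of -0.10 (SE 0.14). With Cre alone it ran from 18.3 to 33.2 CPM with a median of 27.1 CPM in Cre CON hearts, against 17.5 to 30.4 CPM with a median of 23.0 CPM in WT hearts, a log2 fold change of 0.17 (SE 0.14). The CBK effect exceeded the Cre CON effect by 2.76 (SE 0.20) on the log2 scale, and the CBK/CEK effect exceeded it by 2.75 (SE 0.20). The CBK/CEK effect minus the CBK effect was -0.01 (SE 0.20), and the double knockout differed from the 2 single effects added up, less 1 Cre effect, by 0.26 (SE 0.28).

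Nfil3 took another course over the same hearts. It averaged 38.9 ± 5.20 CPM in CBK against 10.9 ± 2.03 CPM in BMAL1 FLOX, while in CBK/CEK, where Slc41a3 averaged 234.8 CPM, it was at 1.84 ± 0.649 CPM against 9.34 ± 1.65 CPM in BMAL1/E4BP4 FLOX. High Slc41a3 levels were thus found in hearts with Nfil3 above and in hearts with Nfil3 below that of their littermates.

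The floxed controls without Cre had Slc41a3 means at or above that of WT. BMAL1 FLOX hearts averaged 36.7 ± 5.65 CPM against 23.8 ± 4.71 CPM in WT, a log2 fold change of 0.62 (SE 0.14) or 1.54-fold, and the ranges overlapped. Against the same WT libraries the log2 fold change was 0.39 (SE 0.14) for the 31.0 ± 6.54 CPM of BMAL1/E4BP4 FLOX and 0.10 (SE 0.14) for the 25.5 ± 3.95 CPM of E4BP4 FLOX. The 2 groups with the floxed Bmal1 alleles thus had the higher means among the 4 groups without Cre, though single libraries of all 4 groups overlapped. A floxed allele and the colony that carries it cannot be told apart here.

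Divided by exon length, the levels can be set side by side between genes. In WT hearts the order was Slc41a1 at 14.1 ± 1.05, Magt1 at 8.56 ± 0.619, Slc41a3 at 8.19 ± 1.62, Mrs2 at 4.96 ± 0.116, Trpm7 at 2.90, Cnnm3 at 2.31, Cnnm4 at 1.02, Cnnm2 at 0.732, Slc41a2 at 0.225 and Trpm6 at 0.0167 CPM per kilobase of exon (SD, n = 6). Among neighbours in this order, single libraries of Magt1 and Slc41a3, of Trpm7 and Cnnm3 and of Cnnm4 and Cnnm2 overlapped, and those of the other neighbours did not. In CBK hearts Slc41a3 came first at 96.1 ± 12.5 CPM per kilobase, ahead of Magt1 at 10.7 ± 4.58, Slc41a1 at 8.98 ± 2.53 and Mrs2 at 6.49 ± 0.556, and in CBK/CEK hearts Slc41a3 was at 80.7 ± 5.67 CPM per kilobase. Over the 10 genes together the summed level was 128 ± 11.5 CPM per kilobase in CBK against 46.8 ± 2.16 in BMAL1 FLOX, and 113 ± 7.20 in CBK/CEK against 47.1 in BMAL1/E4BP4 FLOX. Slc41a3 made up 74.6% ± 3.29 of that sum in CBK, 71.2% ± 0.851 in CBK/CEK, 27.0% ± 3.68 in BMAL1 FLOX, 22.4% in BMAL1/E4BP4 FLOX and 18.9% ± 3.02 in WT. The other 9 genes together had means between 32.4 and 36.5 CPM per kilobase over all 8 groups. The means were 32.4 ± 1.66 in CBK against 34.1 ± 2.03 in BMAL1 FLOX, and 32.7 ± 1.78 in CBK/CEK against 36.4 ± 1.35 in BMAL1/E4BP4 FLOX. Those of CBK and CBK/CEK were the lowest of the 8 groups.

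**Figure D2:**
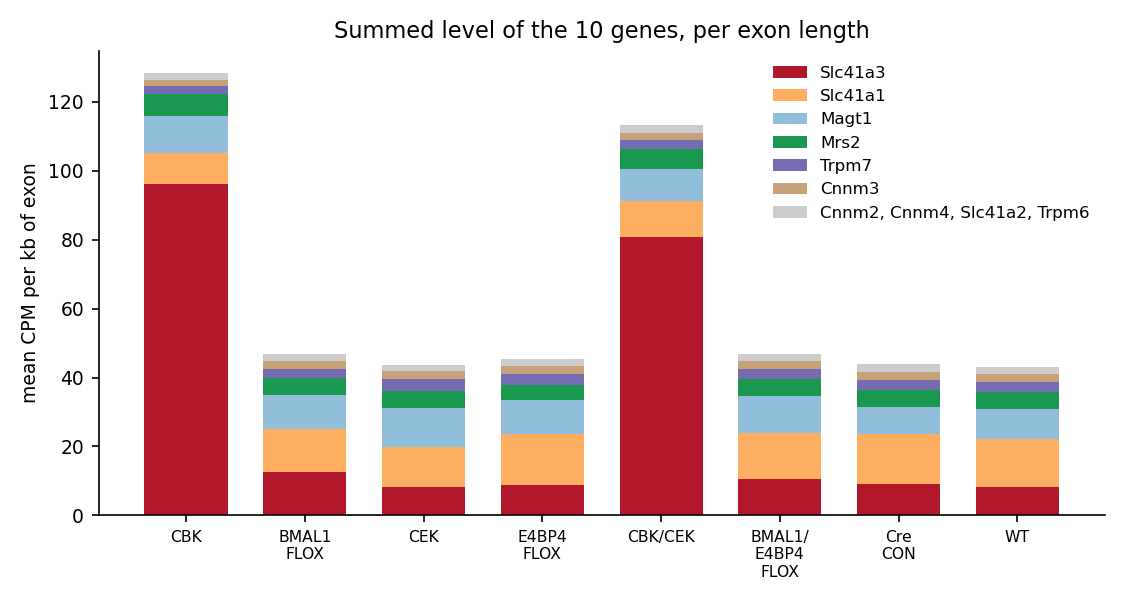
Stacked bars from 0 of the mean level per exon length, in CPM per kilobase, of the 10 magnesium transporter genes in each group, with each knockout or Cre group left of its littermates. The summed bar reaches 128 in CBK against 46.8 in BMAL1 FLOX, and Slc41a3 makes up 74.6% of the CBK bar.

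Mrs2, the mitochondrial entry channel gene on chromosome 13, was the 1 member of the 8 tested that was called higher in both CBK and CBK/CEK. In CBK hearts it ran from 45.1 to 55.5 CPM with a median of 48.9 CPM, against 32.3 to 41.1 CPM with a median of 36.5 CPM in BMAL1 FLOX hearts. In CBK/CEK hearts it ran from 42.7 to 50.6 CPM with a median of 45.5 CPM, against 34.1 to 41.8 CPM with a median of 37.1 CPM in BMAL1/E4BP4 FLOX hearts. The groups did not overlap in either line, as 4.20% of all genes tested did not in CBK and 3.53% in CBK/CEK. Mrs2 rose 1.34-fold in CBK (log2 0.43, SE 0.09, edgeR adjusted p = 6.84e-04) and 1.22-fold in CBK/CEK (log2 0.29, SE 0.09, edgeR adjusted p = 0.0438). Over all groups, 2 of the 36 other libraries lay above the lowest of the 12 CBK and CBK/CEK libraries, the highest of them Cre CON replicate 2 at 44.0 CPM.

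Mrs2 gave no call in the other lines: the log2 fold change was 0.07 (SE 0.09, edgeR adjusted p = 0.832) in CEK and -0.02 (SE 0.09, edgeR adjusted p = 1.00) in Cre CON. The CBK effect on Mrs2 exceeded the Cre CON effect by 0.45 (SE 0.13, edgeR adjusted p = 0.0465), and the CBK/CEK effect exceeded it by 0.31 (SE 0.13, edgeR adjusted p = 0.417). The call in CBK held under all 10 alternative settings, with adjusted p between 3.20e-05 and 0.00675, and that in CBK/CEK under 7 of them, between 0.0246 and 0.121. Without WT replicate 1, the adjusted p became 0.0501 in CBK/CEK and 0.0694 for the difference of the CBK and Cre CON effects, and with no filter on low counts that difference had an adjusted p of 0.130. Over 32.4% of its exon length, 2466 of 7621 bases, Mrs2 overlaps Gpld1 on the opposite strand, and strand was not stated for the counting. Gpld1 itself was at 2.58 CPM in CBK against 1.98 CPM in BMAL1 FLOX (edgeR adjusted p = 0.582).

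Set against each other per exon length, Slc41a3 and Mrs2 stood in another ratio in CBK and CBK/CEK. Slc41a3 was 14.8 ± 1.32 times the Mrs2 level in CBK against 2.64 times in BMAL1 FLOX, and 13.4 ± 1.60 times in CBK/CEK against 2.16 times in BMAL1/E4BP4 FLOX. The ratio was 1.71 in CEK against 1.92 in E4BP4 FLOX, and 1.88 in Cre CON against 1.66 in WT. Mrs2 was divided by all 7621 bases of its exons, of which 32.4% overlap Gpld1, and strand was not stated for the counting. The Mrs2 level per exon length is therefore uncertain, in these ratios and in the order of genes above.

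Slc41a1, the plasma membrane exchanger, was lower in CBK. It ran from 25.9 to 56.9 CPM with a median of 46.5 CPM in CBK hearts, against 47.8 to 75.4 CPM with a median of 64.3 CPM in BMAL1 FLOX hearts. The groups overlapped and the log2 fold change was -0.49 (SE 0.15; edgeR adjusted p = 0.0343). Its difference from the Cre CON effect, -0.51 (SE 0.21), was not called, nor was the CBK/CEK effect minus the CBK effect, 0.13 (SE 0.21). In CBK/CEK hearts it averaged 51.9 ± 11.0 CPM against 66.0 ± 13.1 CPM in BMAL1/E4BP4 FLOX, -0.35 on the log2 scale (SE 0.15, adjusted p = 0.211, edgeR). CEK hearts averaged 57.4 ± 12.9 CPM against 72.5 ± 9.55 CPM in E4BP4 FLOX, a log2 change of -0.34 (SE 0.15; adjusted p = 0.379 by edgeR), and Cre CON hearts 70.5 ± 6.95 CPM against 69.4 ± 5.18 CPM in WT. Thus the mean was lower than in the littermates in all 3 knockout lines and passed the test in CBK.

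**Figure D3:**
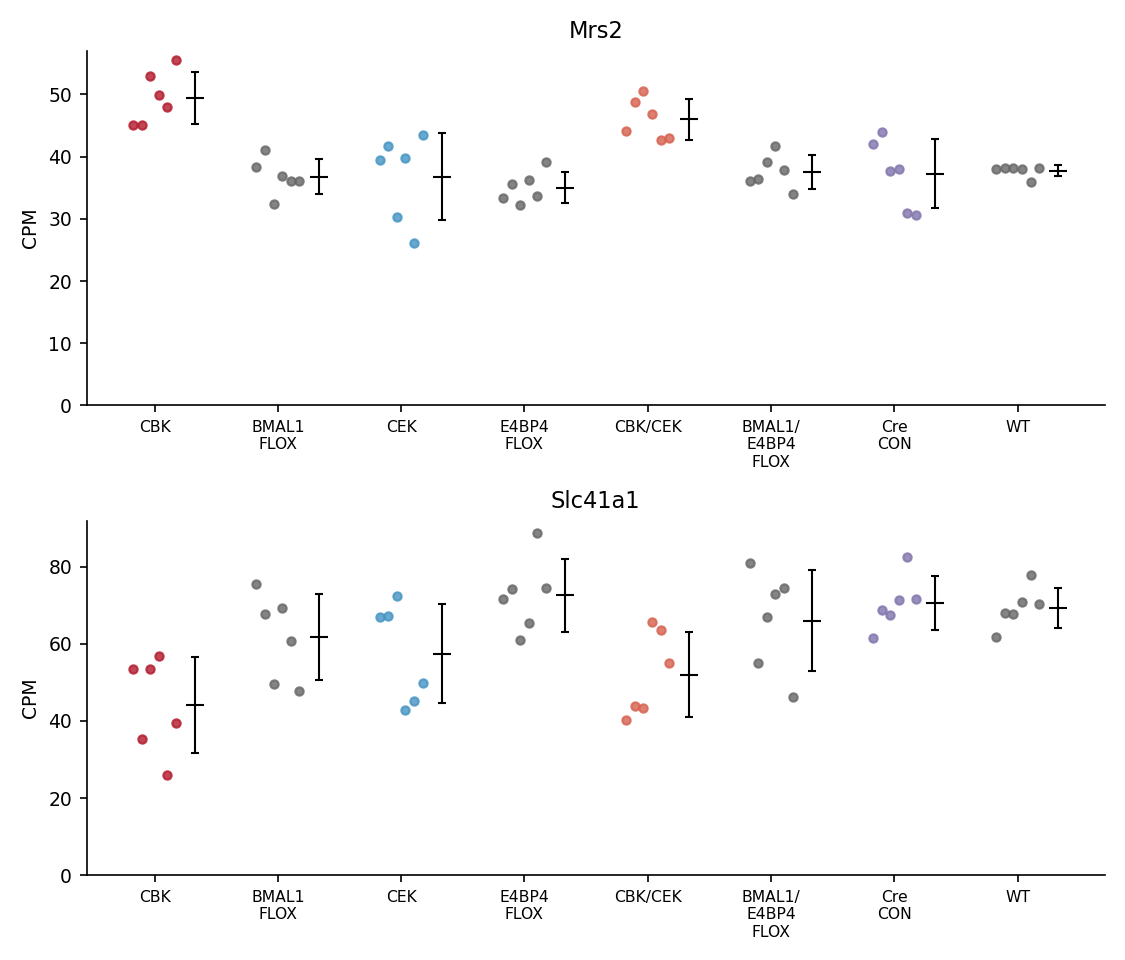
Levels of Mrs2 and Slc41a1 in CPM for each of the 48 libraries by group, with each knockout or Cre group left of its littermates, and bars at the group means. Mrs2 in CBK lies between 45.1 and 55.5 CPM, above all BMAL1 FLOX libraries, while Slc41a1 in CBK lies between 25.9 and 56.9 CPM and overlaps BMAL1 FLOX.

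The Slc41a1 call in CBK depended on the setting. Counts from mitochondrial genes made up 17.6% ± 4.56 of the library in CBK against 21.4% ± 2.94 in BMAL1 FLOX (SD, n = 6 each). Over 48 libraries the deviations of Slc41a1 from its group means had a Pearson r of 0.64 with those of the mitochondrial share, against 0.20 for Mrs2, 0.25 for Slc41a3, 0.49 for Cnnm4 and -0.60 for Magt1. CBK replicate 5 lay lowest in both, at -8.07 percentage points of the share and -0.713 for Slc41a1. In CBK/CEK the deviations of Slc41a1 and of the mitochondrial share had opposite signs in each library. With that share as a covariate, chosen after seeing the data, the CBK value of Slc41a1 was -0.30 (SE 0.12, edgeR adjusted p = 0.160). Without the 5 libraries of outlying composition it was -0.40 (SE 0.14, edgeR adjusted p = 0.0802), while the CBK/CEK value, at -0.43 (SE 0.13, edgeR adjusted p = 0.0413), passed the test. With no filter on low counts and in a fit of the 2 groups alone, the adjusted p for CBK was 0.107 and 0.154. The part of the mitochondrial share in the Slc41a1 values was not tested.

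**Figure D4:**
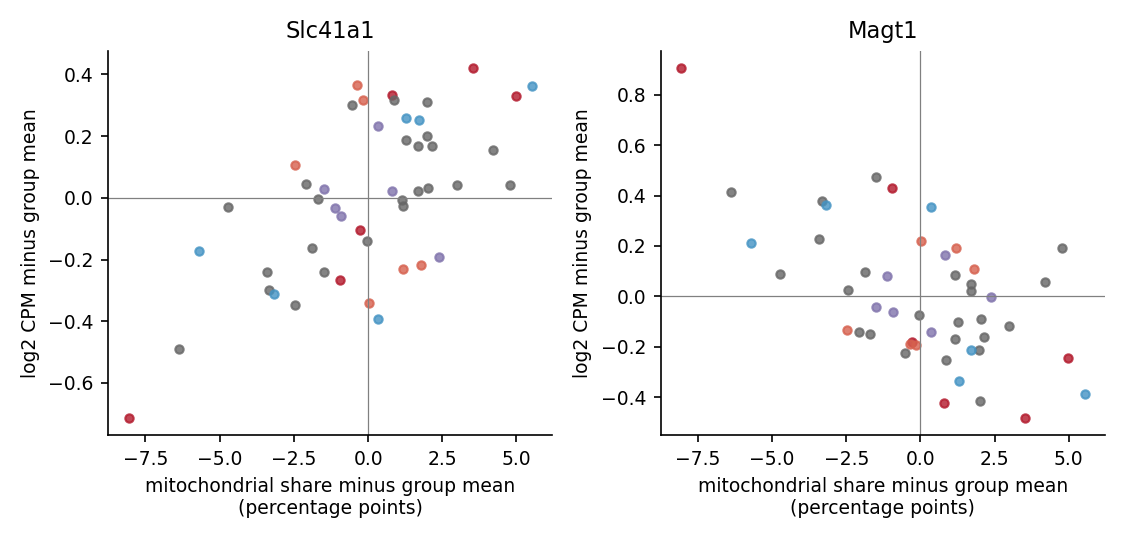
Deviation of the log2 CPM of Slc41a1 and Magt1 from its group mean against the deviation of the mitochondrial share of counts from its group mean, in percentage points, 1 point per library. Slc41a1 runs upward with a Pearson r of 0.64, and Magt1 runs downward with -0.60.

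Slc41a2, the third SLC41 gene, was low, with group means between 0.896 and 1.53 CPM. It was at 1.53 ± 0.240 CPM in CBK against 1.25 ± 0.559 CPM in BMAL1 FLOX, a log2 fold change of 0.29 (SE 0.36), and at 1.46 ± 0.527 CPM in CEK against 0.896 ± 0.501 CPM in E4BP4 FLOX, 0.73 (SE 0.38). Its standard errors, 0.36 to 0.38, were the widest of the 8 members tested, and no difference was called.

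Of the channel kinases, Trpm7, which most cell types express, ran from 19.0 to 31.6 CPM in CBK hearts against 24.5 to 39.2 CPM in BMAL1 FLOX hearts, -0.29 on the log2 scale (SE 0.12, adjusted p = 0.139, edgeR). In CBK/CEK it was at 27.4 ± 2.23 CPM against 32.1 ± 2.77 CPM in BMAL1/E4BP4 FLOX, a log2 change of -0.22 (SE 0.12; adjusted p = 0.361 by edgeR), and in CEK at 42.0 ± 8.20 CPM against 36.2 ± 3.77 CPM in E4BP4 FLOX, 0.21 (SE 0.12). All of these groups overlapped with their littermates. Trpm6, which serves magnesium uptake in kidney and gut, had 0 to 19 counts per library. Its counts summed to 43 over the CBK libraries against 32 in BMAL1 FLOX, 15 in CEK against 8 in E4BP4 FLOX, 52 in CBK/CEK against 34 in BMAL1/E4BP4 FLOX and 8 in Cre CON against 22 in WT. It was at 0 in 9 of 48 libraries, where 3 counts, the limit that a count of 0 allows, come to between 0.126 and 0.289 CPM, for counting error only.

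The CNNM genes showed no call in any comparison. Cnnm3 averaged 12.5 ± 2.36 CPM in CBK against 13.6 ± 1.96 CPM in BMAL1 FLOX, a log2 fold change of -0.12 (SE 0.16), and Cnnm4, known from gut epithelium, 3.85 ± 1.29 CPM in CBK against 4.41 ± 0.545 CPM in BMAL1 FLOX, -0.19 (SE 0.21). Cnnm2, known from the kidney tubule, averaged 4.35 ± 0.735 CPM in CBK against 4.47 ± 0.932 CPM in BMAL1 FLOX, -0.04 (SE 0.15). In BMAL1/E4BP4 FLOX hearts Cnnm2 averaged 5.40 ± 1.07 CPM against 3.78 ± 0.597 CPM in WT, a log2 fold change of 0.49 (SE 0.15, edgeR unadjusted p = 0.00243, adjusted p = 0.293). Magt1 averaged 50.1 ± 21.4 CPM in CBK against 45.9 ± 7.19 CPM in BMAL1 FLOX, 0.13 (SE 0.17), and its CBK libraries spread widely, from 33.6 to 88.0 CPM. In CBK/CEK it averaged 42.6 ± 5.73 CPM against 50.1 ± 11.1 CPM in BMAL1/E4BP4 FLOX, -0.23 (SE 0.17).

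**Figure D5:**
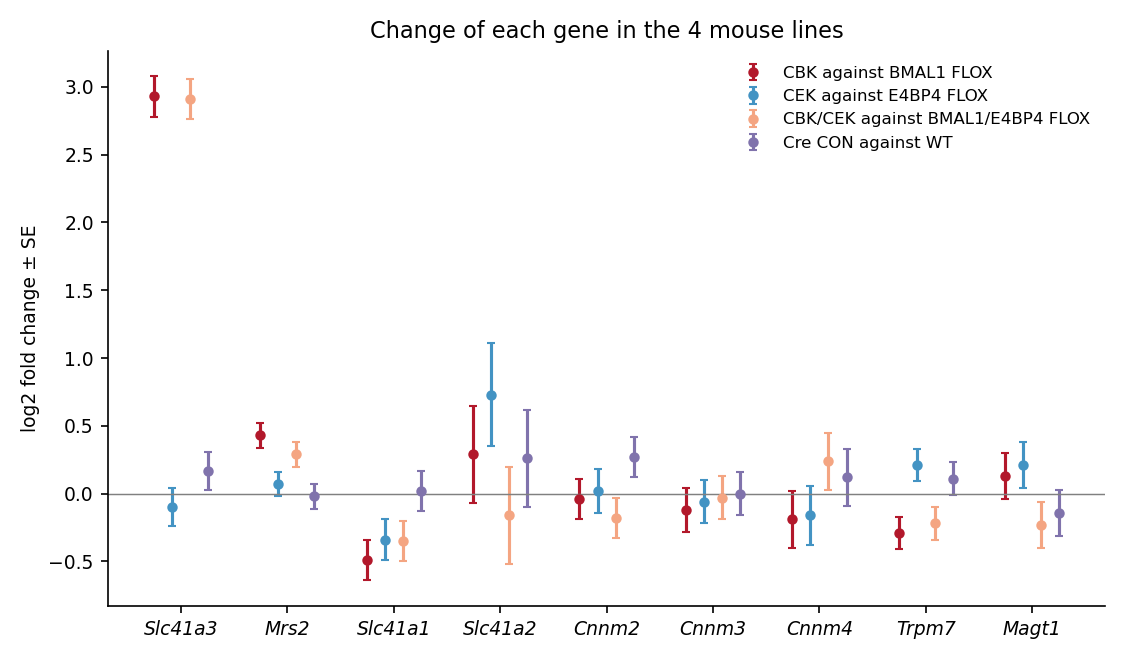
Log2 fold change of each of the 9 magnesium transporter genes in the fit, in the 4 lines against their littermates, with lines of 1 standard error to each side. Slc41a3 lies near 2.93 in CBK and 2.91 in CBK/CEK, and the other genes lie between -0.49 and 0.73.

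Counted over the 8 tested genes, which leave out Slc41a3 and Trpm6, 1 rose and 1 fell in CBK at an edgeR adjusted p under 0.05, where 8.40% of all genes tested passed, 4.05% higher and 4.35% lower. In CBK/CEK 1 rose and 0 fell, where 5.87% of all genes passed, 2.97% higher and 2.90% lower. The median log2 fold change of the 8 was -0.08 in CBK and -0.17 in CBK/CEK, beside -0.00 and -0.02 over all genes tested. None passed in CEK, where 0.307% of all genes did, or in Cre CON, where 0.0180% did, by edgeR or by DESeq2, and 1 and 0 of the 8 had an unadjusted edgeR p under 0.05. Their medians there were 0.05 in CEK and 0.07 in Cre CON, beside 0.02 and -0.01 over all genes. Against WT, none of the 8 passed in BMAL1 FLOX, E4BP4 FLOX or BMAL1/E4BP4 FLOX by either tool, where 0.265%, 0% and 0.283% of all genes did by edgeR, and 0, 0 and 1 had an unadjusted edgeR p under 0.05.

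Between effects, Mrs2 was the gene called for CBK minus Cre CON, where 2.47% of all genes were called. No member was called by edgeR or DESeq2 for CEK minus Cre CON, CBK/CEK minus Cre CON or CBK/CEK minus CBK, where 0.00602%, 1.34% and 0.162% of all genes were called by edgeR, and 0, 2 and 0 of the 8 had an unadjusted edgeR p under 0.05. For the double knockout against the added single effects none was called by either tool, 0.0120% of all genes were by edgeR, and 1 of the 8 had an unadjusted edgeR p under 0.05. The comparisons share control libraries where they share a group, so their values are set side by side without a correlation.

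Other genes of magnesium handling were listed in 3 groups of 14, 7 and 10 genes, for 31 in all, of which 19 passed the filter on low counts. In CBK 1 of the 19 rose and 1 fell by edgeR, a share near the background of all genes tested, of which 8.40% were called, 4.05% higher and 4.35% lower. DESeq2 called 3 of the 19 there. Pcbd1, a cofactor of the HNF1 transcription factors of kidney, averaged 3.13 ± 1.05 CPM in CBK against 0.968 ± 0.436 CPM in BMAL1 FLOX without overlap, 1.68 on the log2 scale (SE 0.41, adjusted p = 0.00317, edgeR). Of all genes tested, 4.20% had no overlap there. Ptp4a3, a phosphatase of the PRL family that binds CNNM proteins, averaged 315 ± 68.3 CPM in CBK against 385 ± 22.7 CPM in BMAL1 FLOX, a log2 change of -0.29 (SE 0.09; adjusted p = 0.0281 by edgeR), and that call was lost with RLE scaling, at an adjusted p of 0.0529, and in a fit of the 2 groups alone, at 0.276.

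In CBK/CEK 1 of the 19 rose and 2 fell by edgeR, where 5.87% of all genes tested were called, 2.97% higher and 2.90% lower, and DESeq2 also called 3. Ptp4a3 averaged 242 ± 15.3 CPM in CBK/CEK against 375 ± 36.9 CPM in BMAL1/E4BP4 FLOX, with -0.63 on the log2 scale (SE 0.09, adjusted p = 8.10e-07, edgeR). Its groups did not overlap, as 3.53% of all genes tested did not. The CBK/CEK effect on Ptp4a3 was below that of Cre CON by 0.53 on the log2 scale (edgeR adjusted p = 0.0138). Ptp4a3 was also lower in CEK, though not called, at 313 ± 14.9 CPM against 378 ± 24.5 CPM in E4BP4 FLOX. Its CEK libraries ran from 289.2 to 329.8 CPM and its E4BP4 FLOX libraries from 352.7 to 407.3 CPM. Cre CON hearts averaged 349 ± 32.6 CPM against 374 ± 41.1 CPM in WT. Egf, a growth factor that raises TRPM6 activity in kidney, averaged 5.01 ± 1.31 CPM in CBK/CEK against 10.6 ± 2.21 CPM in BMAL1/E4BP4 FLOX, a log2 change of -1.09 (SE 0.21; adjusted p = 3.02e-04 by edgeR). In CEK Egf was at 5.28 ± 1.32 CPM against 8.73 ± 2.65 CPM in E4BP4 FLOX, -0.72 (edgeR adjusted p = 0.132). In CBK it was at 8.06 ± 2.99 CPM against 8.24 ± 2.27 CPM in BMAL1 FLOX. Slc25a23, a mitochondrial carrier of ATP-magnesium, averaged 60.6 ± 2.75 CPM in CBK/CEK against 49.8 ± 5.19 CPM in BMAL1/E4BP4 FLOX, 0.29 on the log2 scale (SE 0.07, adjusted p = 0.00890, edgeR), and 61.6 ± 4.99 CPM in CBK against 53.7 ± 6.07 CPM in BMAL1 FLOX, 0.20 (edgeR adjusted p = 0.0882). The Slc25a23 call was lost with no filter on low counts, at an adjusted p of 0.0581, and in a fit of the 2 groups alone, at 0.0576. For CBK/CEK minus Cre CON, Ptp4a3 was the 1 gene of the 19 called, so Egf was not. Slc25a23 was at 0.23 there (SE 0.10, edgeR adjusted p = 0.537). None of the 19 was called in CEK or Cre CON by edgeR or by DESeq2, with 4 and 0 at an unadjusted edgeR p under 0.05.

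Markers of the kidney tubule, a tissue that handles magnesium, were low: the summed level of its 5 markers was 0.642 ± 0.562 CPM in CBK against 1.01 ± 0.723 CPM in BMAL1 FLOX. Of the 5, Umod had a count in 8 of 48 libraries, Slc12a1 in 15, Slc34a1 in 17, Lrp2 in 41 and Slc12a3 in 42, and the highest level in a library was 1.26 CPM, for Slc12a3. The 6 skeletal muscle markers summed to 1653 ± 156 CPM in CBK against 1178 ± 141 CPM in BMAL1 FLOX, and of the 4 tested 1 was called higher, Acta1, a gene also expressed in heart, while the sum ran from 1040 to 1647 CPM with a mean of 1246 CPM in CBK/CEK, against 994 to 2610 CPM with a mean of 1344 CPM in BMAL1/E4BP4 FLOX. Of the 7 cardiomyocyte markers 1 was called lower in CBK, Pln, at a log2 fold change of -0.49, and of the 5 endothelial markers 1, Kdr, at -0.40. The 7 cardiomyocyte markers summed to 65921 ± 14823 CPM in CBK against 64771 ± 4288 CPM in BMAL1 FLOX. Their sum was 62782 ± 7338 CPM in BMAL1/E4BP4 FLOX, 56930 ± 4423 CPM in E4BP4 FLOX and 56912 ± 3050 CPM in WT. Myh6, 1 of the 7, had log2 fold changes against WT of 0.35 in BMAL1 FLOX (edgeR adjusted p = 0.193) and 0.31 in BMAL1/E4BP4 FLOX (edgeR adjusted p = 0.300). In E4BP4 FLOX it was at 0.03. In CBK/CEK 1 of 5 mural markers, Acta2, was called higher, at 0.89, while the median of the 5 was -0.01. The 4 atrial markers had a median log2 fold change of 0.92 in CBK/CEK, with sums of 1575 ± 489 CPM against 871 ± 538 CPM in BMAL1/E4BP4 FLOX, and of 0.76 in CEK, with sums of 1821 ± 1026 CPM against 1068 ± 220 CPM in E4BP4 FLOX, and none was called there by edgeR or DESeq2, with 0 in CBK/CEK and 1 in CEK at an unadjusted edgeR p under 0.05. The called marker genes were named after their values were seen. The part of these markers in the results above was not tested.

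The genes whose log2 CPM ran most like that of Slc41a3 over 48 libraries were Klhdc8a, with a Pearson r of 0.958, Rcan1 at 0.957, Hcn2 at 0.956, 2310022B05Rik at 0.948, Phc2 at 0.945 and Ckap4 at 0.942, of 13079 genes compared. Rcan1 encodes an inhibitor of calcineurin, and Hcn2 a pacemaker channel. Hcn2 averaged 102.5 CPM in CBK against 29.6 CPM in BMAL1 FLOX and 87.9 CPM in CBK/CEK against 29.0 CPM in BMAL1/E4BP4 FLOX. The lowest were Shld1 at -0.954, Dgat2 at -0.950, Tef at -0.945 and Nr1d2 at -0.941. Tef encodes a D-box activator and Nr1d2 the nuclear receptor REV-ERBβ, 2 genes of the clock. Nr1d2 was at 27.5 CPM in CBK against 89.2 CPM in BMAL1 FLOX.

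Within groups the likenesses were lower. Over deviations from the 8 group means r was 0.60 for Klhdc8a, 0.53 for 2310022B05Rik, 0.49 for Hcn2, 0.28 for Ckap4, 0.16 for Rcan1 and 0.12 for Phc2, and it was -0.27 for Shld1, -0.04 for Dgat2, -0.05 for Tef and 0.00 for Nr1d2. Among the members, Mrs2 had an r of 0.76 with Slc41a3 over all libraries and 0.28 over the deviations, Trpm7 -0.65 and -0.18, and Slc41a1 -0.55 and 0.34. By rank correlation 1 of the 6 highest genes was among the 6 highest.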

How the data were processed

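Raw read counts per gene for 48 libraries were deposited by the authors in 1 table, with no normalisation. Per the labels, RNA came from both ventricles and libraries were made with a SMARTER mRNA kit. Per the submitters' processing notes, bcl2fastq 2.18.0.12, STAR 2.7.9a, HTSeq 0.11.1 and build GRCm39 were used, and for strandedness and annotation release the sources used here give no entry. No 2 libraries had identical counts.

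Here edgeR 4.0.16 (R 4.3.3, limma 3.58.1) fitted 8 group means to all 48 libraries with TMM scaling, filterByExpr and robust quasi-likelihood tests, tested on simulated data, with Benjamini-Hochberg adjustment over 16623 genes and calls at an adjusted p under 0.05. The 40 residual degrees of freedom come from mice, which the labels call biological replicates. Symbols, found for 97.0% of IDs, and exon lengths came from a GRCm38 annotation and promoters from RefSeq GRCm38.p6. The members and lists were chosen with earlier results of these data known. The genes named were all members, the called genes of the other magnesium lists with the largest fold change (up to 4 per list and comparison) and the 6 highest and 4 lowest in likeness to Slc41a3 among genes with a mean of at least 1 CPM, with a prior count of 2 on the log2 scale. DESeq2 1.42.0 was 1 of 10 alternative settings.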

Additional observations from a re-analysis of the deposited data

Results flagged for a closer look

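The Mrs2 level in WT replicate 5 was 36.0 CPM, apart from the nearest WT library at 37.9 CPM and the highest at 38.2 CPM, so that the gap to the nearest was 0.86 of the whole range. It was the 1 such sample in 72 groups of 6 libraries checked, and chance alone places such a sample in about 1 of 20 groups.

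The Mrs2 effect of CBK exceeded that of Cre CON by 0.45 on the log2 scale (edgeR adjusted p = 0.0465), with 49.4 ± 4.24 CPM in CBK against 36.8 ± 2.88 CPM in BMAL1 FLOX and, for Cre CON, 37.3 ± 5.52 CPM against 37.8 ± 0.882 CPM for WT (SD, n = 6 each). This call held under 8 of 10 alternatives, with adjusted p between 0.0148 and 0.130, and was lost without WT replicate 1 (0.0694) and with no filter on low counts (0.130). The WT spread was the narrowest of the 8 groups, while the test used 1 estimate of the spread shared by all 8.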

How the results depend on the processing

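Slc41a3 kept its direction in CBK, CBK/CEK, Cre CON and BMAL1 FLOX against WT under all 10 alternatives, with log2 fold changes of 2.93 to 3.00, 2.84 to 2.94, 0.13 to 0.18 and 0.59 to 0.73, and ran from -0.12 to 0.03 in CEK. Of the members called, 2 in CBK became 1 with no filter on low counts, in a fit of the 2 groups alone, without the 5 libraries of outlying composition and with the mitochondrial share as a covariate, as Slc41a1 lost its call. In CBK/CEK 1 became 0 with no filter, without WT replicate 1 and with the share of records outside genes as a covariate, and 2 without the 5 libraries. For CBK minus Cre CON 1 became 0 with no filter and without WT replicate 1. The calls of other magnesium genes, 5 over the 4 lines, became 3 in fits of the 2 groups alone, and the 6 genes most like Slc41a3 kept 1 by Spearman rho.

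The labels number replicates 1 to 6 in each group. Deviations of same-numbered libraries had correlations of -0.17 to 0.25, with 2, 0, 3 and 1 of 6 pairs over 0.1 in CBK, CEK, CBK/CEK and Cre CON. Their own number was the best match of 1, 1, 3 and 2 of 6, most often in CBK/CEK. With the replicate block Mrs2 stayed at 0.43 in CBK and 0.29 in CBK/CEK and Slc41a1 at -0.48 in CBK, and the member counts were 2, 0, 1 and 0 in CBK, CEK, CBK/CEK and Cre CON.

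Uncalled values near 0 changed sign. In Cre CON Cnnm3 was -0.01 with the replicate block, -0.03 without WT replicate 1 and -0.00 with the mitochondrial share, and Slc41a1 was -0.01 without WT replicate 1. Without the 5 libraries Cnnm2 was 0.03 and Magt1 -0.07 in CBK, and Cnnm3 0.07 in CEK. With the mitochondrial share Magt1 was -0.14 in CBK, and in CEK Cnnm2 was -0.07, Cnnm4 0.03 and Magt1 -0.01. With the share of records outside genes Cnnm2 was -0.02 in CEK. The cause of these moves was not tested.

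Over all genes, calls in CBK were 1396, and 871 in a fit of its 2 groups. Calls in CEK were 51, and 142 by DESeq2, 17 with no filter, 22 and 30 with the 2 covariates and 25 in a fit of its groups. Calls in Cre CON were 3, and 19 by DESeq2, 10 in a fit of its groups and 6 without the 5 libraries. Against WT, BMAL1 FLOX had 44, and 67 by DESeq2, BMAL1/E4BP4 FLOX 47, and 29 in a fit of its groups, and E4BP4 FLOX 0, against 2 to 62 under 6 alternatives. Between effects, CEK minus Cre CON had 1, and 5 by DESeq2 and 2 in a fit of its groups or with the mitochondrial share, and the double knockout against the added effects 2, and 7 by DESeq2. Counts summed over a group were 84 to 371 for Slc41a2 and 8 to 52 for Trpm6. Of the 371, the sum in WT, 277 came from WT replicate 1, the deepest library, and the WT mean was 1.20 CPM. The part of depth in the rest of the spread was not tested.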
